A study of Mus musculus with 6 samples.

Results

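The Hox genes of the 4 mouse Hox clusters were followed through the hair follicle lineage on Affymetrix arrays. Members were all genes whose symbol is Hox, a cluster letter a to d and a number, each read through its single-gene probe set with the highest mean. They numbered 33 of the 18193 genes with a probe set of their own, out of 39 Hox genes in the RefSeq gene table. The other 6 had no probe set of their own, and of these Hoxb8 and Hoxd4 had only ones shared with a neighbouring Hox gene. The series, whose title concerns histone marks in the follicle lineage, holds 3 cell groups of 2 arrays each. All cells were sorted from the back skin of untreated female CD-1 mice, and 2 µg of total RNA was labelled per array. Quiescent hair follicle stem cells (qHF-SC) were taken at postnatal days 52 to 60 and sorted by integrin α6 and CD34. Activated stem cells (aHF-SC) were taken at days 28 to 30 and sorted by GFP, integrin α6 and CD34. Transit-amplifying matrix cells (HF-TAC), the dividing progeny that build the hair, were taken at days 28 to 30 and sorted by GFP, integrin α6 and ephrin B1. What drove the GFP, on which side of each gate cells were kept, and whether replicates were separate animals are not in the labels, so a p-value reflects only how far these arrays scatter. Age and sorting scheme changed together with cell state between the quiescent group and the others, and cannot be told apart from it. Between aHF-SC and HF-TAC the ages were the same, but the sorting scheme changed with cell state there too.

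Hox genes encode homeodomain transcription factors that give cells a position along the body axis. Genes at one end of each cluster (low numbers) act towards the head and those at the other end (high numbers) towards the tail, and genes with the same number in different clusters are paralogs. Hox proteins bind DNA with TALE partners of the Pbx and Meis families, Polycomb and Trithorax complexes keep the clusters silent or active, and skin cells keep a Hox pattern from their place in the embryo. In the follicle itself, Hoxc13 is known for driving the keratins of the hair shaft, and mice without it make brittle hair.

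Array medians lay between 22.8 and 24.0, and replicate arrays correlated at r = 0.989 to 0.992 across genes. The cell labels were checked against marker genes. In HF-TAC, 7 of 9 matrix markers were higher than in aHF-SC and 9 of 10 stem cell markers lower (limma, adjusted p under 0.05), with Cd34 at background. Of all genes, 8.97% were higher and 8.57% lower. From qHF-SC to aHF-SC, 1 matrix marker (Top2a) was higher and 1 stem cell marker (Cd34) lower, where 3.07% and 3.21% of all genes were. The quiescent and activated labels therefore rest on few marker calls here. Cd34 and the matrix marker Efnb1 (ephrin B1) were also used in the sort. A level was called background at or under 24.7, the 95th percentile of 72 olfactory, vomeronasal and trace amine receptor genes, which skin epithelium is not known to need.

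Members of the middle of the clusters were detected, and the tail end was at background apart from Hoxc13. Of the 33 Hox genes, 19 had a mean above background in at least 1 group and 17 in all 3 groups. By position, this held for 0 of 2 genes of paralog group 1, for 18 of 21 genes of groups 2 to 9, and for 1 of 10 genes of groups 10 to 13. The 14 genes at background in every group were Hoxa4, Hoxa10, Hoxa11, Hoxa13, Hoxb1, Hoxb7, Hoxb13, Hoxc10, Hoxd1, Hoxd3, Hoxd10, Hoxd11, Hoxd12 and Hoxd13, with single arrays between 5.77 and 30.5. The array at 30.5 was Hoxa4 in aHF-SC replicate 2, whose group mean was 24.0. A low value on a probe set does not show that the gene is silent, since probe sets differ in how well they bind. By cluster, 5 of 9 measured Hoxa genes, 6 of 9 Hoxb genes, 6 of 7 Hoxc genes and 2 of 8 Hoxd genes were above background in at least 1 group.

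**Figure D1:**
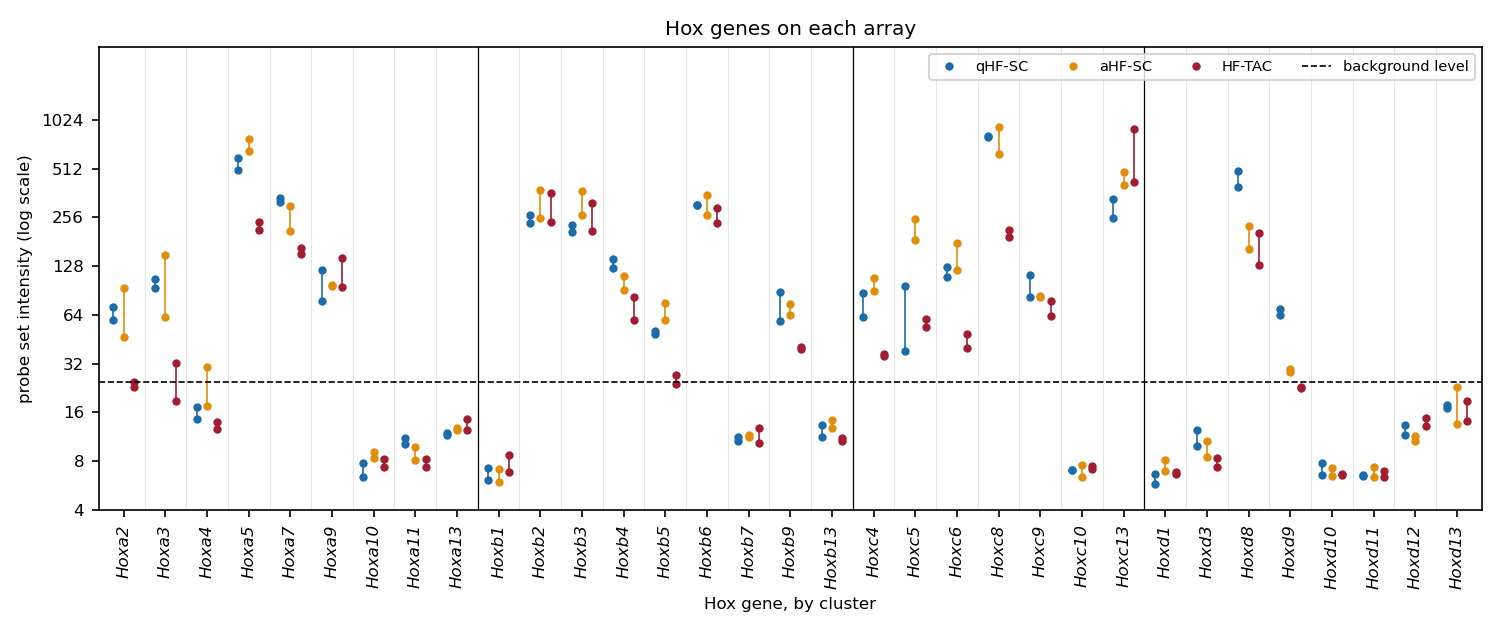
Intensity of each measured Hox gene on each of the 6 arrays, on a log scale, ordered by cluster; points are arrays, lines join the 2 arrays of a group, and the dashed line is the background level of 24.7. The Hoxa, Hoxb and Hoxc genes above the line are mainly those numbered 2 to 9, and Hoxc13 is the exception at the tail end.

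Hox expression fell mainly in the matrix cells. In HF-TAC against aHF-SC, 8 of 33 Hox genes were lower and 0 higher, where 8.57% of all genes tested were lower and 8.97% higher (limma, adjusted p under 0.05). At an unadjusted p under 0.05 the Hox counts were 13 lower and 0 higher. Against qHF-SC, 12 of 33 were lower and 0 higher, where 12.9% of all genes were lower and 13.4% higher, and unadjusted p gave 14 lower and 1 higher. The Hox members called lower were thus 24.2% and 36.4% of the 33 measured Hox genes. Over all 33, called or not, the median log2 difference was -0.24 in HF-TAC against aHF-SC and -0.22 against qHF-SC. All genes had medians of -0.012 and -0.0089. These comparisons share the HF-TAC arrays, so they are given side by side and not as support for each other. In bulk samples such as these, fewer cells of a type and less RNA per cell cannot be told apart. Tested against a 2-fold change instead of none, 0 of the 8 and 1 of the 12 calls stood, and leaving out qHF-SC replicate 2 left 6 of 33 lower in HF-TAC than in qHF-SC.

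The 7 members Hoxa2, Hoxa3, Hoxa5, Hoxb5, Hoxc4, Hoxc6 and Hoxc8, were lower in HF-TAC than in both stem cell groups. Hoxc8, which patterns the thoracic trunk, had intensities of 808 and 816 in qHF-SC, 927 and 629 in aHF-SC, and 216 and 194 in HF-TAC. Both HF-TAC arrays lay far below all 4 stem cell arrays, and the stem cell groups overlapped. It was 3.73-fold lower than in aHF-SC (log2 -1.90 ± 0.21 SE, limma adjusted p = 0.00141) and 3.97-fold lower than in qHF-SC (-1.99 ± 0.21, adjusted p = 0.000592). The latter was the only Hox call that also passed the test against a 2-fold change.

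Hoxc6 and Hoxc4 lie further towards the head end of the cluster and pattern the shoulder and upper thorax. Hoxc6 had intensities of 126 and 109 in qHF-SC, 122 and 177 in aHF-SC, and 40.0 and 48.6 in HF-TAC. The stem cell groups overlapped and the HF-TAC arrays lay below both. It was 3.33-fold lower in HF-TAC than in aHF-SC (log2 -1.73 ± 0.22 SE, limma adjusted p = 0.00237) and 2.66-fold lower than in qHF-SC (-1.41 ± 0.22, adjusted p = 0.00316). Another of its probe sets differed in the same direction by only -0.29 and -0.47 on the log2 scale. Hoxc4 had intensities of 87.1 and 62.4 in qHF-SC, 89.3 and 108 in aHF-SC, and 36.8 and 35.7 in HF-TAC. Its groups did not overlap, with aHF-SC highest and HF-TAC lowest. The log2 difference of HF-TAC was -1.44 ± 0.20 SE from aHF-SC (2.71-fold lower, limma adjusted p = 0.00352) and -1.02 ± 0.20 from qHF-SC (2.03-fold lower, adjusted p = 0.00884). Without qHF-SC replicate 1 the difference from qHF-SC was -0.78 (adjusted p = 0.0532).

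Hoxa5 and Hoxb5 are paralogs known from lung and shoulder development. Hoxa5 had intensities of 599 and 505 in qHF-SC, 656 and 777 in aHF-SC, and 242 and 215 in HF-TAC. The 3 groups did not overlap. HF-TAC was 3.13-fold lower than aHF-SC (log2 -1.65 ± 0.17 SE, limma adjusted p = 0.00124) and 2.41-fold lower than qHF-SC (-1.27 ± 0.17, adjusted p = 0.00175). Its other probe set differed by -0.97 and -1.0 on the log2 scale. Hoxb5 had intensities of 49.0 and 50.9 in qHF-SC, 59.7 and 76.3 in aHF-SC, and 23.9 and 27.3 in HF-TAC. Its groups did not overlap either, and 1 HF-TAC array was under the background level. HF-TAC was 2.64-fold lower than aHF-SC (log2 -1.40 ± 0.18 SE, limma adjusted p = 0.0023) and 1.95-fold lower than qHF-SC (-0.97 ± 0.18, adjusted p = 0.00626). So near the background level these sizes are not exact. An offset of 16 before the logarithm gave -1.01 against aHF-SC (limma adjusted p = 0.00974).

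Hoxa2 and Hoxa3 lie at the head end, where they pattern the hindbrain, the branchial arches and organs of the throat. Hoxa2 had intensities of 59.5 and 71.5 in qHF-SC, 46.7 and 93.8 in aHF-SC, and 24.5 and 23.0 in HF-TAC. The stem cell groups overlapped, and both HF-TAC arrays lay below them at background, so its fold is a lower bound, set against the background level. HF-TAC was at least 2.68-fold lower than aHF-SC (limma adjusted p = 0.0164) and at least 2.64-fold lower than qHF-SC (adjusted p = 0.0116). The call against aHF-SC was lost without HF-TAC replicate 2 (adjusted p = 0.0672), and the log2 difference of -1.48 ± 0.31 SE became -0.98 without aHF-SC replicate 2. That against qHF-SC was lost without qHF-SC replicate 2 (adjusted p = 0.0763) or HF-TAC replicate 2 (adjusted p = 0.0505). An offset of 16 before the logarithm also ended both calls (adjusted p = 0.0642 and 0.0512).

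Hoxa3 had intensities of 106 and 93.3 in qHF-SC, 62.3 and 151 in aHF-SC, and 18.8 and 32.3 in HF-TAC. The HF-TAC arrays straddled the background level, below all stem cell arrays, and the aHF-SC arrays lay on either side of qHF-SC. The log2 difference of HF-TAC was -1.97 ± 0.42 SE from aHF-SC (limma adjusted p = 0.0181) and -2.02 ± 0.42 from qHF-SC (adjusted p = 0.0111). These calls depend on single arrays and on the probe set. The first was lost without aHF-SC replicate 2 (-1.34, adjusted p = 0.063), without replicate 1 of HF-TAC (-1.58, adjusted p = 0.0744) and with the offset of 16 (adjusted p = 0.0668). The second was lost without qHF-SC replicate 1 (adjusted p = 0.0648), qHF-SC replicate 2 (adjusted p = 0.0517) or HF-TAC replicate 1 (adjusted p = 0.0517). With the other probe set above background, whose name carries no cross-hybridisation suffix, the differences shrank to -0.40 (adjusted p = 0.167) and -0.62 (adjusted p = 0.031).

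**Figure D2:**
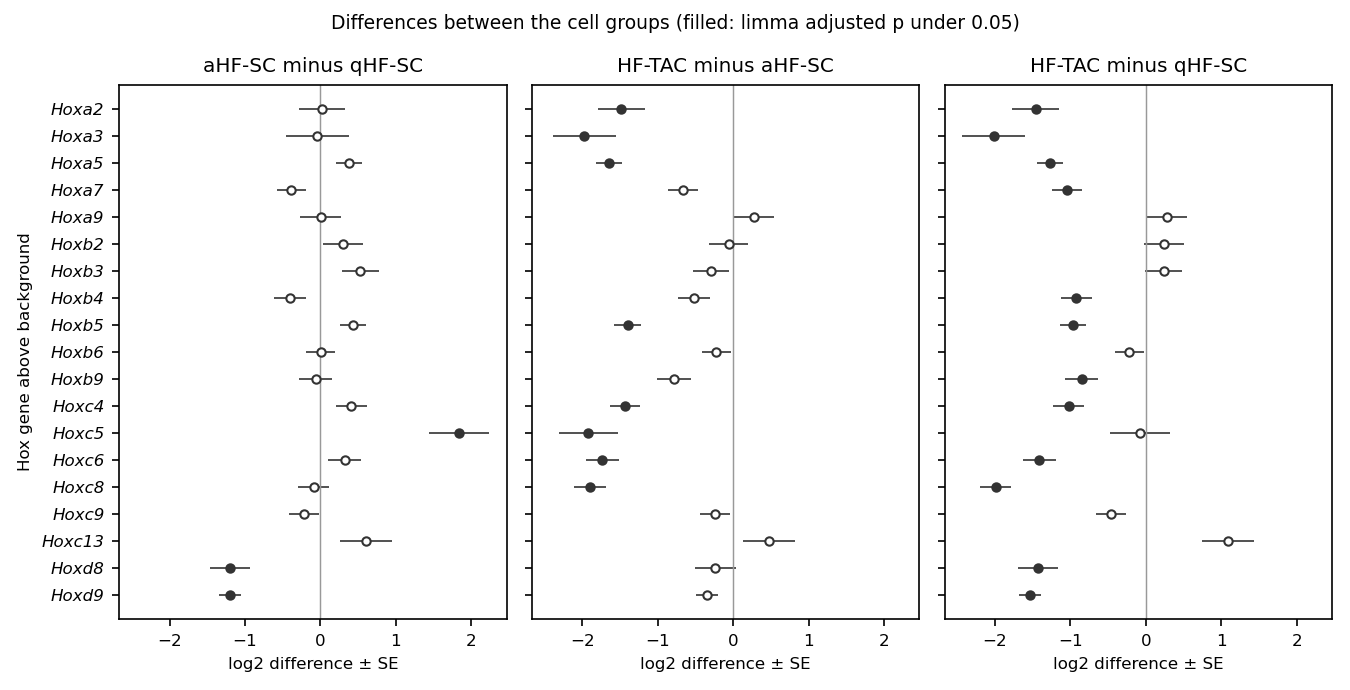
Log2 differences with their standard errors between the 3 cell groups, 1 panel per comparison, for the 19 Hox genes above background in at least 1 group; filled points passed limma's adjusted p of 0.05. In both panels with HF-TAC all filled points lie left of 0, and in the stem cell panel 1 filled point lies right of 0 and 2 lie left of it.

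Between the stem cell states, Hoxc5, Hoxd8 and Hoxd9 had calls. Going from qHF-SC to aHF-SC, 1 of 33 Hox genes was higher and 2 were lower, where 3.07% of all genes tested were higher and 3.21% lower (limma, adjusted p under 0.05). Such counts are near the background and are not a result about Hox genes as a group. Unadjusted p gave 2 higher and 2 lower, adding Hoxb5 (log2 0.43, 95% interval 0.02 to 0.85), and the Hox median log2 difference was 0.015, beside 0.0048 for all genes. Of these calls, 0 stood in a test against a 2-fold change. Hoxd9 and Hoxd8, neighbours in the Hoxd cluster on chromosome 2, moved together. Hoxd9 had intensities of 69.2 and 63.6 in qHF-SC, 28.2 and 29.8 in aHF-SC, and 22.7 and 22.9 in HF-TAC. Its groups did not overlap, qHF-SC stood well above the other groups, and HF-TAC was at background. Relative to qHF-SC it was 2.29-fold lower in aHF-SC (log2 -1.19 ± 0.15 SE, limma adjusted p = 0.00804) and at least 2.68-fold lower in HF-TAC (adjusted p = 0.000398). Without qHF-SC replicate 2 the first of these missed the threshold (-1.25, adjusted p = 0.0586).

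Hoxd8 had intensities of 393 and 493 in qHF-SC, 227 and 163 in aHF-SC, and 131 and 204 in HF-TAC. The qHF-SC arrays lay above all others, while aHF-SC and HF-TAC overlapped. It was 2.29-fold lower in aHF-SC (log2 -1.19 ± 0.27 SE, limma adjusted p = 0.0455) and 2.69-fold lower in HF-TAC (-1.43 ± 0.27, adjusted p = 0.00701) than in qHF-SC. Its other probe set gave -1.11 and -1.31. The first call was close to the threshold and was lost on leaving out any of the 4 stem cell arrays: qHF-SC replicate 1 (adjusted p = 0.105), qHF-SC replicate 2 (0.257), aHF-SC replicate 1 (0.0882) or aHF-SC replicate 2 (0.194). It was also lost with the offset of 16 (adjusted p = 0.0909) and with the mean of the probe sets (adjusted p = 0.0586). The second call was lost without qHF-SC replicate 2 (-1.27, adjusted p = 0.0537).

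The 250 bases before the start of Hoxd9 and of Hoxd8 are shown because these neighbours fell together, with those of Hoxa5 beside them as a member called lower in HF-TAC only. Sequences are RefSeq's on GRCm38.p6, 5′ to 3′ on the gene's strand, with CG dinucleotides in capitals. Hoxd9 lies at chr2:74697513-74697762 (plus strand), Hoxd8 at chr2:74704365-74704614 (plus strand) and Hoxa5 at chr6:52204588-52204837 (minus strand).
Hoxd9: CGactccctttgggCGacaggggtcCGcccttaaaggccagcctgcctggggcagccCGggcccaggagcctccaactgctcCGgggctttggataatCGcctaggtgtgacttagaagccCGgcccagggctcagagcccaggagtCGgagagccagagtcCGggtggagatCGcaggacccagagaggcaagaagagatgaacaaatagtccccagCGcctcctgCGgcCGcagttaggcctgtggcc
Hoxd8: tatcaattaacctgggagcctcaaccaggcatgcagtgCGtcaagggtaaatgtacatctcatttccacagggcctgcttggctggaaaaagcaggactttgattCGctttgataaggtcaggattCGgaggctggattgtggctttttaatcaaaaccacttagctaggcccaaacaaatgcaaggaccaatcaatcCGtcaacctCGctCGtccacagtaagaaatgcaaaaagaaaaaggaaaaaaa
Hoxa5: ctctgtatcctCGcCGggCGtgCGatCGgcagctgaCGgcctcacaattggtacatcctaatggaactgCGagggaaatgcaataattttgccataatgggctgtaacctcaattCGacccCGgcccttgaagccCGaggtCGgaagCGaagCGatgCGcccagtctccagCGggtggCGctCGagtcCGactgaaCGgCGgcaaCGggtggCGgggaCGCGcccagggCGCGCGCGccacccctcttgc
The windows differ in CG content, with 13 CG dinucleotides before Hoxd9, 6 before Hoxd8 and 28 before Hoxa5. Of all 32851 promoter windows, 31.5%, 50.4% and 7.61% hold as many or more. RefSeq windows matched 19 of the 33 members (21 windows), which had a median of 13 CG dinucleotides in these 250 bases, where all windows had 6. Among members, the median was 8 for the 9 above background and 16.5 over the 12 windows of members at background. The box CCAAT, searched on both strands of 300-base windows, was in 57.1% of Hox windows and 37.4% of all windows, and the Hox and Pbx motif TGATNNAT in 14.3% and 8.85%. TATAAA was in 9.52% and 13.6%, and the GC box GGGCGG in 38.1% and 35.7%. None of these motifs contains another, and a match is a description of the sequence only.

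Hoxc5, which with Hoxa5 specifies motor neurons of the diaphragm, was the Hox gene called higher in aHF-SC. Its intensities were 95.9 and 38.1 in qHF-SC, 186 and 252 in aHF-SC, and 60.4 and 54.2 in HF-TAC. Both aHF-SC arrays lay above all others, and HF-TAC lay inside the wide qHF-SC range. It was 3.58-fold higher in aHF-SC than in qHF-SC (log2 1.84 ± 0.40 SE, limma adjusted p = 0.0414) and 3.78-fold lower in HF-TAC than in aHF-SC (-1.92 ± 0.40, adjusted p = 0.0161). HF-TAC and qHF-SC differed by -0.080 (adjusted p = 0.923). Of its other 2 probe sets, 1 was above background in aHF-SC only and 1 in no group, so they give no sizes to set beside these. The higher call was lost without qHF-SC replicate 2 (1.17, adjusted p = 0.11; 2.5 without qHF-SC replicate 1), aHF-SC replicate 1 (adjusted p = 0.113) or aHF-SC replicate 2 (adjusted p = 0.176), with the offset of 16 (adjusted p = 0.0909) and when its probe sets were averaged (1.0, adjusted p = 0.0873). The lower call was lost without aHF-SC replicate 2 (adjusted p = 0.099) or HF-TAC replicate 2 (adjusted p = 0.0678), and averaging its probe sets gave -1.13 (adjusted p = 0.0323).

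Hoxa7, Hoxb4 and Hoxb9, with Hoxd8 and Hoxd9, passed the threshold in HF-TAC against qHF-SC but not against aHF-SC. Hoxa7, a trunk gene, had intensities of 318 and 338 in qHF-SC, 211 and 299 in aHF-SC, and 166 and 152 in HF-TAC. The groups stepped down in that order without overlap, and HF-TAC was 2.06-fold lower than qHF-SC (log2 -1.04 ± 0.20 SE, limma adjusted p = 0.00735). Against aHF-SC the difference was -0.66 ± 0.20 (adjusted p = 0.0612), and without qHF-SC replicate 2 the call was lost (adjusted p = 0.0514). Hoxb4, known for expanding blood stem cells, had intensities of 142 and 125 in qHF-SC, 90.6 and 112 in aHF-SC, and 59.6 and 82.7 in HF-TAC. These groups also stepped down without overlap, and HF-TAC was 1.9-fold lower than qHF-SC (log2 -0.92 ± 0.21 SE, limma adjusted p = 0.0155). Its other probe set gave -0.34, and the call was lost without qHF-SC replicate 1 (adjusted p = 0.0921), qHF-SC replicate 2 (0.055) or HF-TAC replicate 1 (0.0666). Hoxb9, which patterns the ribs, had intensities of 58.2 and 89.2 in qHF-SC, 74.5 and 63.8 in aHF-SC, and 39.4 and 40.6 in HF-TAC. The stem cell groups overlapped and HF-TAC lay below them, 1.8-fold lower than qHF-SC (log2 -0.85 ± 0.22 SE, limma adjusted p = 0.0275) and with -0.79 ± 0.22 against aHF-SC (adjusted p = 0.0505). The call was lost without qHF-SC replicate 2 (-0.54, adjusted p = 0.141), HF-TAC replicate 1 (0.0891) or HF-TAC replicate 2 (0.0829), and with the offset of 16 (0.0579).

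**Figure D3:**
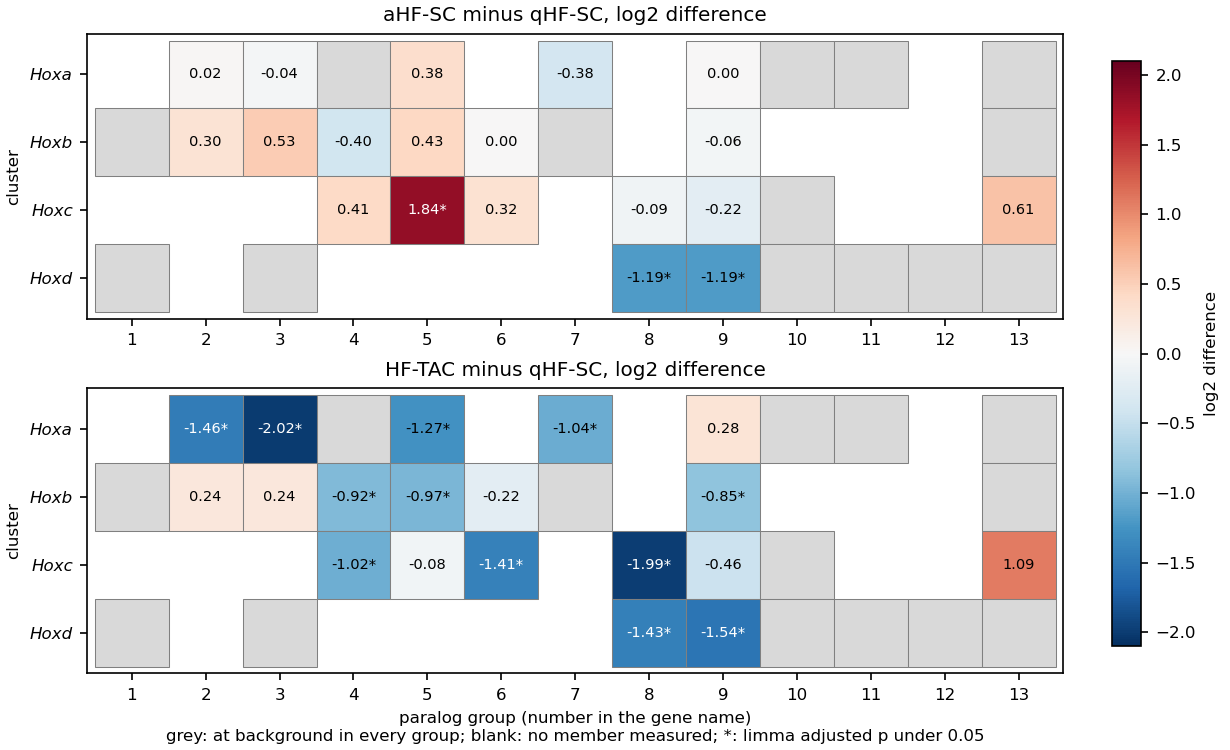
Log2 differences from qHF-SC laid out by cluster (rows) and paralog group (columns), for aHF-SC above and HF-TAC below; red is higher, blue lower, and stars mark limma's adjusted p under 0.05. In the lower panel the stars fall in paralog groups 2 to 9 of all 4 clusters, and in the upper panel on Hoxc5, Hoxd8 and Hoxd9.

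Of the members above background, 6 passed the threshold in no comparison: Hoxa9, Hoxb2, Hoxb3, Hoxb6, Hoxc9 and Hoxc13. By cluster, 1 of 9 measured Hoxb genes was lower in HF-TAC than in aHF-SC. The counts were 3 of 9 Hoxa, 4 of 7 Hoxc and 0 of 8 Hoxd genes, where 8.57% of all genes were lower. Against qHF-SC, 3 Hoxb, 4 Hoxa, 3 Hoxc and 2 Hoxd genes were lower, where 12.9% of all genes were. These counts include genes at background, and of the Hoxd genes only 2 were above it. Whether the clusters differ was not tested. Hoxb2, a hindbrain gene, had intensities of 266 and 237 in qHF-SC, 252 and 378 in aHF-SC, and 241 and 364 in HF-TAC. All 3 groups overlapped, and the log2 difference of HF-TAC from aHF-SC was -0.059 with a 95% interval of -0.68 to 0.56. Hoxb3, another hindbrain and throat gene, had intensities of 229 and 208 in qHF-SC, 266 and 373 in aHF-SC, and 211 and 314 in HF-TAC. Only the stem cell groups were apart, at 0.53 ± 0.24 SE (limma adjusted p = 0.287), and the interval for HF-TAC against aHF-SC ran from -0.87 to 0.28. Hoxb6, a trunk gene, had intensities of 306 and 304 in qHF-SC, 266 and 352 in aHF-SC, and 236 and 293 in HF-TAC. Its HF-TAC arrays lay just below qHF-SC and overlapped aHF-SC, with an interval against aHF-SC of -0.68 to 0.23. These intervals exclude a fall of the size seen for Hoxc8 (-1.90) or Hoxa5 (-1.65), but not a smaller one.

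Hoxa9, known as a partner of Meis1 in leukaemia, had intensities of 120 and 77.7 in qHF-SC, 97.8 and 96.1 in aHF-SC, and 95.4 and 144 in HF-TAC. All groups overlapped, and HF-TAC differed from qHF-SC by 0.28 (95% interval -0.35 to 0.91). Hoxc9, which sets the identity of thoracic motor neurons, had intensities of 82.0 and 112 in qHF-SC, 82.1 and 83.2 in aHF-SC, and 77.6 and 63.0 in HF-TAC. Its HF-TAC arrays lay below the others, at -0.46 from qHF-SC (95% interval -0.93 to 0.01). It lies between Hoxc8 and Hoxc10, so a gene called lower in HF-TAC and one at background flank it.

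Hoxc13, the hair shaft regulator, had the largest positive log2 difference of the 33 members between HF-TAC and qHF-SC, without passing the threshold. It had intensities of 334 and 254 in qHF-SC, 406 and 486 in aHF-SC, and 423 and 905 in HF-TAC. The qHF-SC arrays were lowest, and HF-TAC replicate 2 stood above every other array while replicate 1 lay within the aHF-SC range. HF-TAC was 2.12-fold above qHF-SC (log2 1.09 ± 0.34 SE, 95% interval 0.28 to 1.89), with a limma adjusted p of 0.0559 that missed the threshold. It passed after scaling to the 75th percentile (1.06, limma adjusted p = 0.0261), after quantile normalisation (1.04, 0.0485) and with dim genes left out (0.0446). It also passed with an intensity trend (limma adjusted p = 0.0452) and without HF-TAC replicate 1 (1.64). In 10 of the 15 alternative settings it did not pass. Without HF-TAC replicate 2 the difference was 0.54 (adjusted p = 0.191). Against aHF-SC the difference was 0.48 ± 0.34 (adjusted p = 0.453), -0.072 on leaving out HF-TAC replicate 2 (adjusted p = 0.925) and 1.03 on leaving out HF-TAC replicate 1 (adjusted p = 0.034). The value in HF-TAC therefore rests on which array is read.

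Hair shaft keratins and hair regulators that are linked to Hoxc13 in the literature were read beside it. Of 18 measured, 8 were higher and 0 lower in HF-TAC than in aHF-SC, and 11 were higher and 0 lower than in qHF-SC (limma, adjusted p under 0.05, against the shares of all genes given above). Between the stem cell groups, 2 were higher in aHF-SC and 0 lower. Krt35, a keratin of the early hair shaft, had intensities of 12.0 and 16.2 in qHF-SC, 98.6 and 201 in aHF-SC, and 3528 and 8535 in HF-TAC. It was at background in qHF-SC, so HF-TAC was at least 222-fold higher (limma adjusted p = 6.27e-05). Krt33a, another shaft keratin, had 174 and 643 in HF-TAC and was at least 13.5-fold above qHF-SC (limma adjusted p = 0.00131). Lef1, the Wnt effector of the matrix, had 400 and 728 in HF-TAC, and 38.4 and 32.6 in qHF-SC (log2 3.93, limma adjusted p = 0.000123). Padi3, which modifies hair proteins, was already up in aHF-SC, with 114 and 107 against 17.6 and 20.2 in qHF-SC (at least 4.47-fold, limma adjusted p = 0.00508). Replicate 2 of HF-TAC, the array with more Hoxc13, was above replicate 1 for 14 of the 16 hair genes above background, where 59.3% of all genes above background were. It was also above for 9 of 9 matrix markers, 4 of which (Foxn1, Msx2, Dlx3 and Lef1) are in both lists. Of the stem cell markers 6 of 10 were higher on replicate 2, and of the differentiated keratinocyte markers 0 of 8. Among the latter, Krt79 had 11194 on HF-TAC replicate 1 and 6644 on replicate 2. The 2 HF-TAC arrays thus differed in both directions, depending on the markers read. Among the 19 Hox genes above background, 12 were higher on that array.

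**Figure D4:**
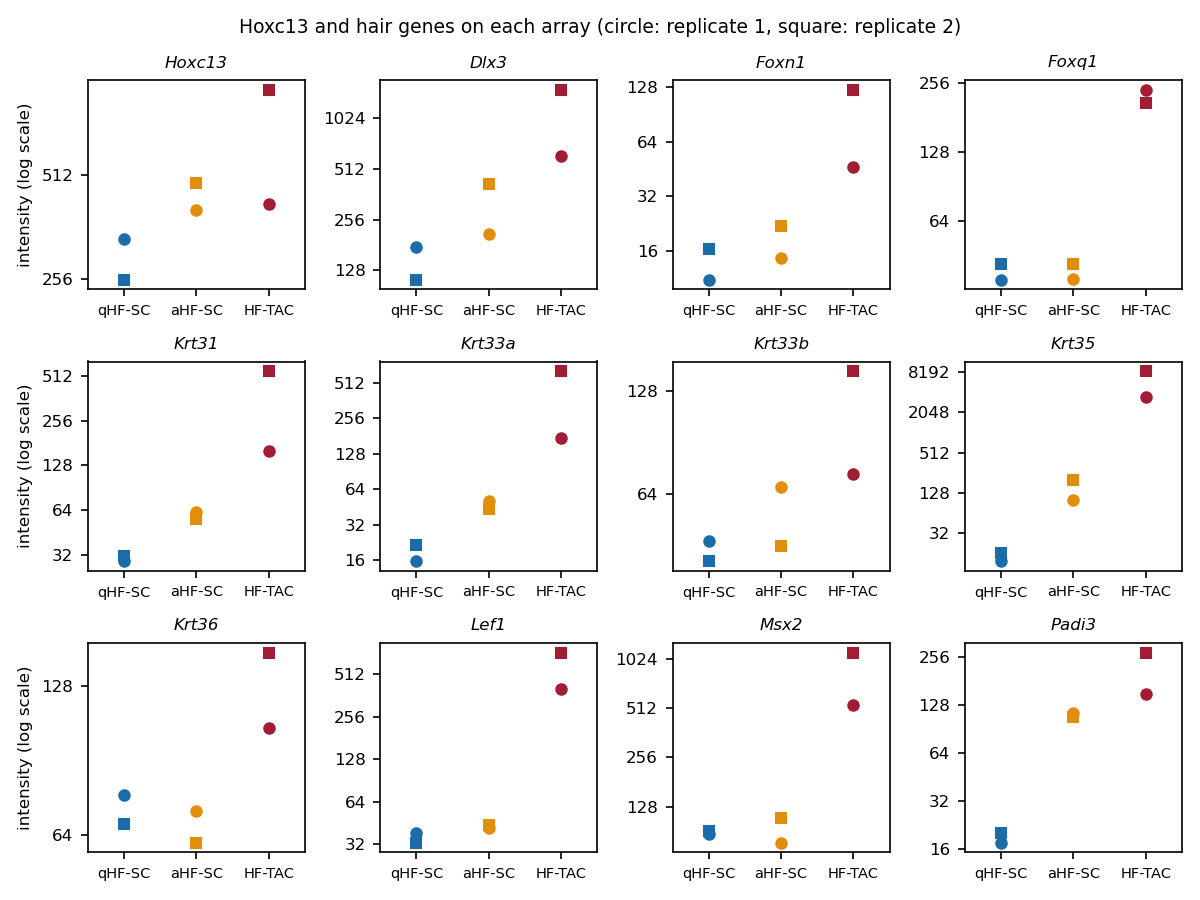
Intensity (log scale, each panel with its own range) of Hoxc13 and of the 11 hair genes higher in HF-TAC than in qHF-SC, on each array; circles are replicate 1 and squares replicate 2 of each group. HF-TAC replicate 2 lies above replicate 1 for Hoxc13 and for most of the hair genes.

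Pbx3, Meis1 and Pknox2, TALE cofactors that bind DNA as partners of Hox proteins, were lower in HF-TAC than in qHF-SC. Of 8 measured cofactors, 0 were higher and 2 lower in HF-TAC than in aHF-SC (8.97% and 8.57% of all genes), and 0 higher and 3 lower than in qHF-SC (13.4% and 12.9% of all genes; limma, adjusted p under 0.05). Pbx3 had intensities of 839 and 816 in qHF-SC, 690 and 551 in aHF-SC, and 131 and 169 in HF-TAC. The HF-TAC arrays were far below the rest, at a log2 difference of -2.05 ± 0.19 SE from aHF-SC (limma adjusted p = 0.000823) and -2.47 ± 0.19 from qHF-SC (adjusted p = 0.000178). Meis1 had intensities of 194 and 200 in qHF-SC, 187 and 235 in aHF-SC, and 53.1 and 71.2 in HF-TAC. It too was set apart in HF-TAC only, by -1.77 from aHF-SC (limma adjusted p = 0.00158) and -1.68 from qHF-SC (adjusted p = 0.000983). Pknox2 had intensities of 131 and 102 in qHF-SC, 14.1 and 42.6 in aHF-SC, and 19.7 and 15.9 in HF-TAC. From qHF-SC to aHF-SC it was the 1 cofactor called lower (limma adjusted p = 0.0356), with 1 of the 2 aHF-SC arrays under the background level and no exact size therefore. In HF-TAC it was at background, at least 4.69-fold below qHF-SC (limma adjusted p = 0.00463). Pbx2, Pknox1 and Meis3 were above background and passed in no comparison, and Pbx4 and Meis2 were at background.

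Chromatin regulators of the Hox clusters had calls in both directions. Of 25 measured, 3 were higher and 1 lower in HF-TAC than in aHF-SC, 6 higher and 2 lower than in qHF-SC, and 0 passed between the stem cell groups (limma, adjusted p under 0.05). Over all genes the shares were 8.97% higher and 8.57% lower than in aHF-SC, and 13.4% and 12.9% against qHF-SC. Counts this small are not read as a result about the regulators as a group. Ezh2, the H3K27 methyltransferase of dividing cells, had intensities of 195 and 134 in qHF-SC, 233 and 147 in aHF-SC, and 590 and 783 in HF-TAC. Its HF-TAC arrays were well above the rest, by 2.07 on the log2 scale over qHF-SC (limma adjusted p = 0.00188). Ezh1, its counterpart in resting cells, had intensities of 486 and 498 in qHF-SC, 280 and 388 in aHF-SC, and 184 and 188 in HF-TAC. It stepped down without overlap, to -1.40 in HF-TAC against qHF-SC (limma adjusted p = 0.00158). Phc1 of Polycomb complex PRC1 rose in HF-TAC to at least 3.04-fold over qHF-SC (limma adjusted p = 0.00259), and Cbx7, the reader of H3K27me3 in PRC1, fell by 1.17 on the log2 scale (adjusted p = 0.00754).

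The listed inducers of Hox genes in the embryo include the retinoic acid pathway, which opens the clusters from the head end. Of 13 measured, 2 were higher and 0 lower in HF-TAC than in aHF-SC, 4 higher and 1 lower than in qHF-SC, and from qHF-SC to aHF-SC 1 rose and 1 fell (limma, adjusted p under 0.05). The shares of all genes were 8.97% and 8.57%, 13.4% and 12.9%, and 3.07% and 3.21% in the same order. On so short a list these counts are not read as a result about the inducers as a group. The retinoic acid synthesising enzyme Aldh1a1 had intensities of 7.92 and 11.8 in qHF-SC, 9.82 and 9.28 in aHF-SC, and 336 and 272 in HF-TAC. It left background in HF-TAC only, at least 12.2-fold over either stem cell group (limma adjusted p = 0.000112 against aHF-SC and 3.98e-05 against qHF-SC). Aldh1a3, of the same function, had 136 and 230 in HF-TAC, at least 7.17-fold over qHF-SC (limma adjusted p = 0.00022). Cyp26b1, which degrades retinoic acid, had intensities of 212 and 392 in qHF-SC, 59.7 and 83.8 in aHF-SC, and 43.4 and 27.4 in HF-TAC. It stepped down without overlap (limma adjusted p = 0.0204 for aHF-SC and 0.000824 for HF-TAC against qHF-SC). Egr2, which activates Hoxa2 and Hoxb2 in the hindbrain, had intensities of 286 and 110 in qHF-SC, 934 and 1011 in aHF-SC, and 2943 and 1896 in HF-TAC. It rose in each group over qHF-SC (limma adjusted p = 0.0208 and 0.000824). Hoxa2 was lower in HF-TAC and Hoxb2 passed in no comparison, and a link of either to Egr2 was not tested. The fourth gene called higher in HF-TAC than in qHF-SC was Rarb, a retinoic acid receptor and known target of the pathway (limma adjusted p = 0.0291). Its group means were all at background, with arrays of 8.2 and 6.4 in qHF-SC and 11 and 13 in HF-TAC, so that difference lies within background signal. Cdx1, Cdx2 and Cdx4 were at background too.

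Genes around the clusters and antisense transcripts within them were read the same way. Of the 40 measured protein-coding genes nearest to the clusters, 5 on each side, 6 were higher and 6 lower in HF-TAC than in aHF-SC, 8 higher and 8 lower than in qHF-SC, and from qHF-SC to aHF-SC 1 rose and 1 fell. Over all genes these shares were 8.97% and 8.57%, 13.4% and 12.9%, and 3.07% and 3.21%. Lower calls in HF-TAC lay beside every cluster, most of them beside Hoxa. Beside Hoxa, Snx10, Skap2, Jazf1 and Creb5 were lower in HF-TAC than in both stem cell groups. Tax1bp1 was lower than in qHF-SC only, and Nfe2l3 and Hnrnpa2b1, also beside Hoxa, were higher than in both. Copz2 beside Hoxb (log2 -1.52 from aHF-SC and -1.72 from qHF-SC) and Ttc30b beside Hoxd (-0.78 and -1.22) were also lower than in both. Calcoco1 beside Hoxc was lower than in qHF-SC only (-1.23). Higher than in both were Tarbp2, Cbx5 and Hnrnpa1 beside Hoxc and Lnpk beside Hoxd. Atp5g1 beside Hoxb and Mtx2 beside Hoxd were higher than in qHF-SC only. Whether flanking genes move with their cluster was not tested. Hoxb5os, an antisense transcript of the Hoxb cluster, had intensities of 693 and 750 in qHF-SC, 526 and 486 in aHF-SC, and 326 and 385 in HF-TAC. It stepped down without overlap, with a log2 difference of -1.03 between HF-TAC and qHF-SC (limma adjusted p = 0.00318) and -0.51 between HF-TAC and aHF-SC (adjusted p = 0.0697). Hoxd3os1 and Hoxa11os were at background in all groups.

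Markers of other skin cells were read beside the Hox results, because dermal fibroblasts carry strong positional Hox codes. The summed intensity of 10 fibroblast markers was 1704 to 1979 in qHF-SC, 1615 to 1893 in aHF-SC and 4386 to 6901 in HF-TAC, and Lum and Pdgfra were at background everywhere. Decorin (Dcn) made up most of the HF-TAC sum, with 3646 and 5927, and Col1a2, Fbln1 and Thy1 were lower in HF-TAC than in qHF-SC (limma, adjusted p = 0.0194, 0.0414 and 0.00196). Of 10 dermal papilla markers, Corin, Rspo3, Sox2 and Sox18 were at background everywhere, and sums ran from 335 to 395 in qHF-SC, 257 to 478 in aHF-SC and 467 to 506 in HF-TAC. Of 6 smooth muscle type genes, Myh11 was at background, and the sum was 425 to 492 in qHF-SC, 2936 to 5549 in aHF-SC and 467 to 668 in HF-TAC, carried by Acta2, Tagln and Myl9. Of 6 melanocyte genes, Tyr was at background, and the sum was 1783 to 1956 in qHF-SC, 435 to 514 in aHF-SC and 512 to 695 in HF-TAC, carried in qHF-SC by Mitf with 1581 and 1801. Against that sum, 3 of the 6 (Dct, Mlana and Tyr) were higher in HF-TAC than in qHF-SC (limma, adjusted p = 0.00171, 0.0174 and 0.019) and Mitf was the 1 lower. Of all genes, 13.4% were higher and 12.9% lower. The Tyr difference lay within background signal, with group means of 7.39 in qHF-SC and 15.9 in HF-TAC. Endothelial sums lay between 84.0 and 116 and immune sums between 180 and 251 over all arrays, with Pecam1, Cdh5, Emcn, Cldn5, Ptprc and Tyrobp at background. The 8 differentiated keratinocyte markers had sums of 26728 to 26927, 13015 to 15221 and 28043 to 44256 in the same order of groups. Of these, 5 were higher and 0 lower in HF-TAC than in aHF-SC (8.97% and 8.57% of all genes). Against qHF-SC 2 were higher and 0 lower (limma, adjusted p under 0.05, 13.4% and 12.9% of all genes). From qHF-SC to aHF-SC 0 rose and 3 fell (3.07% and 3.21%). Krt79 had means of 282, 320 and 8919 and Ivl of 119, 83.6 and 725 in qHF-SC, aHF-SC and HF-TAC. The part of these and the other marker genes in the Hox differences was not tested.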

How the data were processed

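The measurements are the probe set intensities that the authors deposited for 6 Affymetrix arrays (45101 probe sets, 64 of them controls). RMA is named in the submitters' processing notes, and the values lie on a linear scale, from 3.83 to 31188. Which software and probe set definition were used, and how log values became linear, is not given in the sources used here. The deposited intensities were taken as normalised and turned into log2 values with no offset. Of the probe sets, 34945 carry 1 gene symbol in the platform annotation, 932 several and 9160 none. 34741 matched the RefSeq table by Entrez number and 0 symbols changed. Of a gene's single-gene probe sets, the one with the highest mean log2 over all arrays was used, for 18193 genes, of which 9010 had more than 1. limma 3.58.1 (R 4.3.3) was fitted to all 6 arrays with group as the only term (3 residual degrees of freedom, 4.25 from the prior). Tests were two-sided with Benjamini-Hochberg adjustment over all genes and a threshold of 0.05, and intervals are 95% intervals of limma's moderated estimates. The script was tested on simulated data. The number of arrays limits the precision. A gene at background in 1 group has only a bound, taken per array against the higher of 24.7 and its own value. All Hox genes are accounted for, and of each other list up to 4 members past the threshold with the largest change are named, with members below them named for contrast. Members and lists were chosen with earlier results of these data known. Alternatives were other scaling, offsets, filters, probe set rules, variance models, a replicate block and each array left out. The labels do not say whether replicate numbers pair the arrays. Deviations of the same replicate number were barely correlated between groups (0.06, -0.13 and 0.08), which cannot show whether samples were paired. Sequences come from RefSeq (GRCm38.p6) and were read with python 3.11.15.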

Additional observations from a re-analysis of the deposited data

Results flagged for a closer look

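Signal was present in probe sets shared by 2 Hox genes, which no comparison above used. The probe set shared by Hoxb8 and Hoxb7 had a qHF-SC mean of 197 ± 17.0 (SD, n = 2). The aHF-SC mean was 164 ± 46.9 and the HF-TAC mean 162 ± 58.2, all above the background level of 24.7. The probe set of Hoxb7 alone was at background in every group, between 10.4 and 12.8 on single arrays. A probe set shared by Hoxd4 and Hoxd3 had a highest group mean of 30.7 in HF-TAC, with 28.7 in qHF-SC and 29.4 in aHF-SC, while Hoxd3 alone was at background. Another probe set of the same pair was at background in every group, with means of 18.9, 15.7 and 12.3 in qHF-SC, aHF-SC and HF-TAC, so this signal near the background level was on 1 of the 2. Which of the 2 genes gave the signal cannot be told apart.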

How the results depend on the processing

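Counts of Hox genes past the threshold were recomputed under 15 alternatives. For aHF-SC against qHF-SC, the count higher went from 1 to 0 with an offset of 16, the mean of probe sets, the replicate block or a test against a 2-fold change. The block ended the calls of Hoxc5 (adjusted p = 0.0609) and Hoxd8 (adjusted p = 0.0737). The count lower went from 2 to 1 with the offset, the mean of probe sets or the replicate block, and to 0 in the 2-fold test. For HF-TAC the 2-fold test left 0 lower than aHF-SC and 1 lower than qHF-SC. The count higher than qHF-SC became 1 (Hoxc13) with 75th percentile scaling, quantile normalisation, dim genes left out or an intensity trend. The replicate block kept 8 lower than aHF-SC and 12 lower than qHF-SC. Leaving out 1 array gave 0 to 1 higher and 0 to 2 lower in aHF-SC against qHF-SC, 0 to 1 higher and 6 to 10 lower in HF-TAC against aHF-SC, and 0 to 1 higher and 6 to 12 lower against qHF-SC. Hoxc13 in HF-TAC against aHF-SC turned to -0.072 without HF-TAC replicate 2 and was called at 1.03 without HF-TAC replicate 1. Of the 3, 8 and 12 calls, 0, 5 and 5 stood in every alternative other than the 2-fold test. With background at the 75th percentile (12), 23 of 33 Hox genes were above it in each group. The causes were not tested, except that a left-out array means fewer arrays in the test.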
